A study of Mus musculus with 12 samples.

Results

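Striatal projection neurons, the principal neurons of the caudate and putamen under the cortex, were followed through 9 marker genes (Drd1, Drd2, Adora2a, Rgs9, Ppp1r1b, Pde10a, Rasd2, Rarb and Gpr6) in RNA from adult mouse cortex. The genes were given by name and found as rows of a table of 21738 distinct gene symbols, and each was read in every library as a measure of striatal RNA beside cortical RNA. Poly(A) RNA from whole cortex was sequenced in 12 libraries: 4 of Tet1 KO cortex, 4 of Tet1 HxD cortex and 4 of Tet1 WT cortex, called KO 1 to 4, HxD 1 to 4 and WT 1 to 4 after the replicate numbers in the labels. Tet1 encodes an enzyme that oxidises methylated cytosine, and the title of the study asks about its catalytic and non-catalytic functions; an iron-binding motif of this enzyme family bears the name HxD. The labels used here do not describe the alleles further, name no strain or sex, and give no age beyond adult. Nothing in them ties a library to an animal of its own, so the p-values below weigh differences against a library-to-library spread that may be technical in part or whole. Library totals ran between 5791642 and 9535409 estimated counts in KO, 7767787 and 10347432 in HxD, and 8310783 and 10915574 in WT. Levels are given as CPM, the usual scaling of counts to a common library size, here the counts in tested genes after TMM adjustment.

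Striatal projection neurons release GABA and fall into a pair of classes. Neurons of the direct pathway carry the D1 dopamine receptor, which raises cyclic AMP, and neurons of the indirect pathway carry the D2 dopamine receptor, which lowers it, together with the adenosine receptor Adora2a and Gpr6, which raise it. Both classes share a set of proteins that act on this signal, among them DARPP-32 (Ppp1r1b), the phosphodiesterase Pde10a, the G protein regulator Rgs9 and the small GTPase Rasd2, and the retinoic acid receptor Rarb is also expressed there. Drd1 and Ppp1r1b are known from some neurons of deep cortical layers as well, so they are not specific to striatum. In bulk RNA, fewer cells of a type and less RNA per cell cannot be told apart.

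Promoter sequence is shown for members because TET1 acts on methylated CpG. RefSeq promoter windows on build GRCm38.p6 were found for 7 of the 9 members, and Adora2a and Ppp1r1b had no entry. In the 250 bases before the start, the palindromic cyclic AMP response element TGACGTCA was found in 1 of the 9 windows of members, that of Gpr6, and in 1.55% of all 32851 windows. A direct repeat of GTTCAC 5 bases apart, the letters of the retinoic acid response element known from the Rarb promoter, was searched on both strands and found in 1 window of a member, that of Rarb, and in 0.00609% of all windows. These matches describe the letters and show no binding. Capitals mark the element in the stretches of Gpr6 (chr10:41072291-41072540, minus strand) and Rarb (chr14:16575477-16575726, minus strand), and every CpG in that of Drd2 (chr9:49340153-49340359, plus strand), whose marks number 9.
Gpr6: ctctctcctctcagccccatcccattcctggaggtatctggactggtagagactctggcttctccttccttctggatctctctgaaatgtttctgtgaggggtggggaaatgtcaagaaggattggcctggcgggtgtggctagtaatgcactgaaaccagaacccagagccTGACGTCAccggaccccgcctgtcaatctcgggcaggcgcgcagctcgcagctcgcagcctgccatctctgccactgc
Rarb: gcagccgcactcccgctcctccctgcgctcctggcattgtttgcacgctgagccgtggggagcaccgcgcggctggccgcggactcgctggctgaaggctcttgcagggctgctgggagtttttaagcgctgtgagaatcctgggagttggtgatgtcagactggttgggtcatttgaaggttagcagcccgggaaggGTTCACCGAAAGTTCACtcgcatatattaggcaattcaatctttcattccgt
Drd2: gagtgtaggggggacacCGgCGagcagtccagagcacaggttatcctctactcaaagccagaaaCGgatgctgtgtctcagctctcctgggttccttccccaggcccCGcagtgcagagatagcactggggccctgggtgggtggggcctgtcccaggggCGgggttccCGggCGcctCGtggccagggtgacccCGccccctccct
Over the 250 bases before a start, Drd1 had 15 CpG in one window and 5 in another, Drd2 15, Rarb 16, Rgs9 14 and Gpr6 9. Rasd2 had 27, and Pde10a 21 in one window and 4 in another. The median of all windows was 6. At least as many CpG were found in 8.56% of all windows for Rasd2, 25.4% for Rarb, 27.3% for Drd2 and 40.3% for Gpr6. The stretch printed for Drd2 is 207 bases long and so holds fewer of its CpG.

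The libraries differed in more than genotype. HxD 3 had the highest summed level of the 9 markers, 652.8 CPM against 153.8 to 414.8 CPM in the other 11 libraries. HxD 1 held 335 CPM over 8 hippocampal markers, where the other libraries held 38.8 to 67.1 CPM, and 273.5 CPM over 6 choroid plexus markers, where the others held 3.71 to 40.0 CPM. Cortical identity was plain in every library: Slc17a7, the vesicular glutamate transporter of cortical excitatory neurons, stood at 1822 to 2266 CPM in KO, 2090 to 2828 CPM in HxD and 2148 to 3221 CPM in WT. Tet1 itself was listed at 0 in all 4 KO libraries, had 1, 0, 63 and 67 estimated counts in HxD 1 to 4, and was listed at 0 in all 4 WT libraries, so the genotype labels cannot be checked from it. A count of 0 in this table is no proof of silence, since 6.78% of the tested genes were listed at 0 in 1 library and at 100 or more counts in another of the same genotype. Among the 9 markers, Drd1 and Rgs9 jumped in this way.

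Of the 9 markers, 7 passed the filter on low counts. Pde10a, which breaks down cyclic AMP and cyclic GMP and is abundant in striatum, was listed at 0 in 10 of 12 libraries, with 1 count in HxD 3 and 3 in WT 2. Rasd2 was listed at 0 in 9 libraries and reached at most 2 counts, in KO 1. These genes were also near 0 in HxD 3, where the other markers were high. RefSeq lists 11 transcripts for Pde10a and 1 for Rasd2. How their reads were assigned is not given in the sources used here, and no comparison is drawn from either gene.

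**Figure D1:**
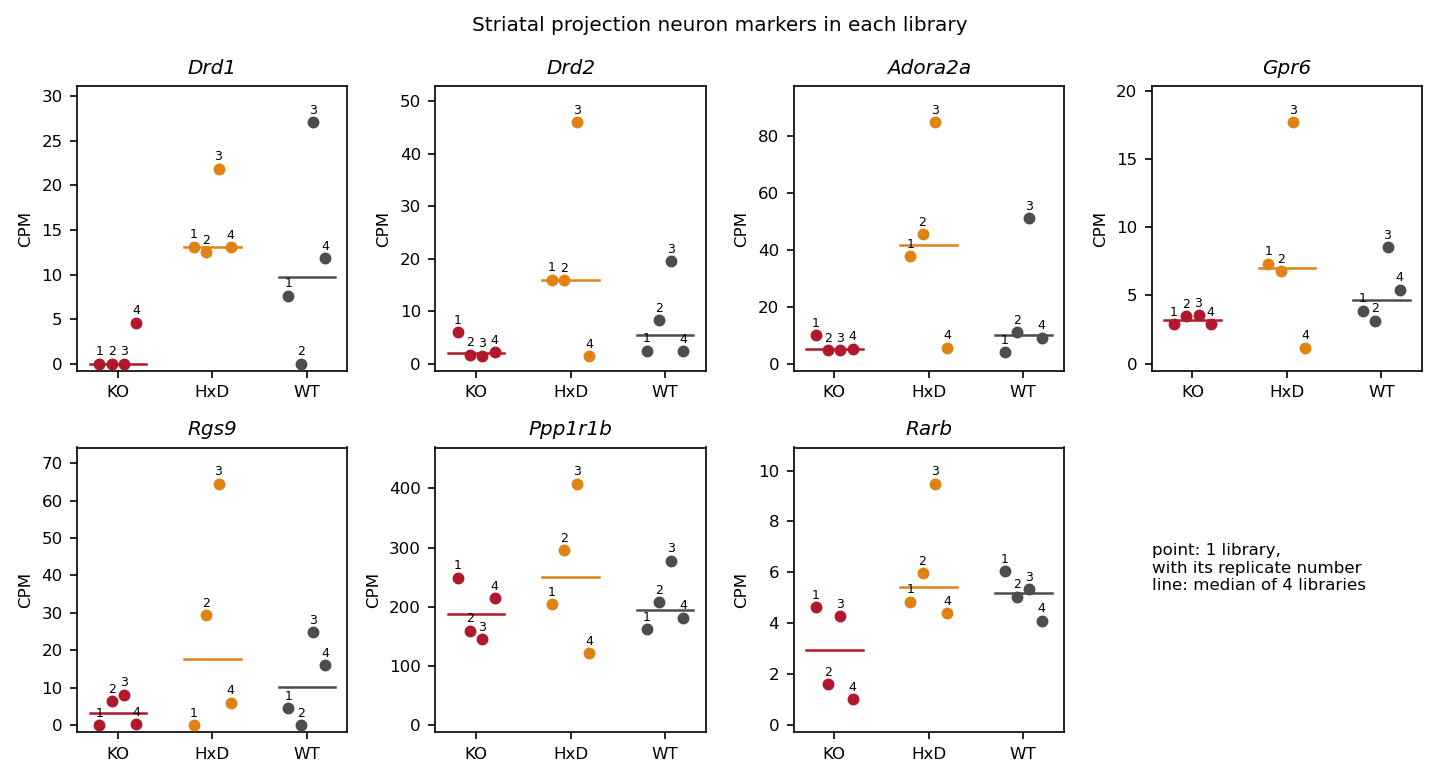
CPM (linear axis) of the 7 markers that passed the filter in each library of KO, HxD and WT cortex; a point is 1 library with its replicate number and a line is the median of 4 libraries. HxD 3 is the highest point for 6 of the 7 genes, WT 3 for Drd1, and HxD 4 is the lowest of all for Drd2 and lies among the KO libraries for Adora2a.

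Drd2 encodes the dopamine receptor of the indirect pathway. It stood at 5.99, 1.74, 1.497 and 2.22 CPM in KO 1 to 4, at 16.0, 15.9, 46.0 and 1.46 CPM in HxD 1 to 4, and at 2.51, 8.28, 19.6 and 2.41 CPM in WT 1 to 4. HxD 1, HxD 2, HxD 3 and WT 3 were the 4 highest libraries, and HxD 4 was the lowest of all 12, so the genotypes overlapped. Group means were 2.86 ± 2.11 CPM in KO, 19.8 ± 18.7 in HxD and 8.19 ± 8.07 in WT (SD, n = 4). The log2 fold change was -1.52 ± 0.96 (SE) for KO against WT, 1.28 ± 0.94 for HxD against WT and -2.80 ± 1.001 for KO against HxD. Without WT 3 it was -0.63 for KO against WT and 2.17 for HxD against WT, and without HxD 3 it was 0.43 for HxD against WT. With all libraries, none of these passed edgeR's quasi-likelihood test, with adjusted p = 0.679, 0.999 and 0.33.

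Adora2a, the adenosine receptor gene of the same neurons, followed the same libraries. It stood at 9.93, 4.81, 4.81 and 5.30 CPM in KO 1 to 4, at 37.8, 45.5, 85.0 and 5.66 CPM in HxD 1 to 4, and at 3.99, 11.04, 51.3 and 9.12 CPM in WT 1 to 4. The same 4 libraries as for Drd2, HxD 1, HxD 2, HxD 3 and WT 3, held at least 37.8 CPM, and the other 8 at most 11.04 CPM. The log2 fold change was -1.60 ± 0.86 for KO against WT, 1.21 ± 0.84 for HxD against WT and -2.81 ± 0.89 for KO against HxD. None passed the edgeR test, with adjusted p = 0.618, 0.999 and 0.268. The DESeq2 Wald test called the difference between KO and HxD at an adjusted p of 0.023. Without WT 3, the log2 fold change was -0.38 for KO against WT and 2.43 for HxD against WT, with adjusted p = 0.963 and 0.647 in edgeR. Without HxD 3, it was 0.64 for HxD against WT.

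Gpr6, an orphan receptor of the indirect pathway that signals without a known ligand, was the scarcest of the 3 indirect-pathway receptors per kilobase of transcript in HxD and WT means, but not in KO, where it averaged 1.79 CPM per kilobase and Drd2 1.12. Its levels were 2.91, 3.47, 3.53 and 2.90 CPM in KO 1 to 4, 7.32, 6.76, 17.7 and 1.17 CPM in HxD 1 to 4, and 3.88, 3.14, 8.51 and 5.41 CPM in WT 1 to 4. HxD 3 and WT 3 were highest, followed by HxD 1 and HxD 2, and HxD 4 was again the lowest. KO libraries lay within a narrow band of 3.21 ± 0.343 CPM, against 8.23 ± 6.88 CPM in HxD and 5.24 ± 2.38 CPM in WT (SD, n = 4). The log2 fold change was -0.70 ± 0.62 for KO against WT, 0.65 ± 0.61 for HxD against WT and -1.35 ± 0.63 for KO against HxD. Adjusted p in edgeR was 0.803, 0.999 and 0.442. Without HxD 3 it was -0.05 for HxD against WT and -0.66 for KO against HxD, and without WT 3 it was -0.37 for KO against WT.

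Drd1 encodes the dopamine receptor of the direct pathway. It was listed at 0 in KO 1, KO 2 and KO 3 and had 4.61 CPM in KO 4, while HxD 1 to 4 had 13.1, 12.5, 21.9 and 13.1 CPM. WT 1 to 4 had 7.64, 0, 27.1 and 11.8 CPM. Every KO library was below every HxD library, and KO and WT overlapped through WT 2. This lack of overlap between KO and HxD gave p = 0.0286 in an exact permutation test (two-sided), the smallest that 4 against 4 libraries allow. It was 1 of 21 such tests, over 7 genes and 3 comparisons, and the p of this exact test adjusted over them was 0.4. The KO values rest mostly on counts of 0, which are no proof of silence here. Over all tested genes, 3.62% had KO wholly below HxD. The edgeR adjusted p was 0.44 for KO against HxD, 0.588 for KO against WT and 0.999 for HxD against WT. Unlike the indirect-pathway genes, Drd1 was not low in HxD 4.

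Rgs9 speeds the shut-off of G proteins that D2 receptors activate. It had 0, 6.41, 8.13 and 0.342 CPM in KO 1 to 4, 0, 29.4, 64.5 and 6.05 CPM in HxD 1 to 4, and 4.56, 0, 24.9 and 16.0 CPM in WT 1 to 4. Each genotype held 1 library listed at 0, and HxD 1, high in Drd2, Adora2a and Gpr6, was among them. The edgeR adjusted p was 0.868 for KO against WT, 0.999 for HxD against WT and 0.615 for KO against HxD. Its fold is not read on its own here, since every genotype has a library listed at 0, but it enters the set medians below.

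Ppp1r1b encodes DARPP-32, which inhibits protein phosphatase 1 once protein kinase A has phosphorylated it. It was by far the most abundant marker: its mean per kilobase of the longest GENCODE transcript was 109.5 CPM over the 12 libraries, against 8.80 for Adora2a, 4.04 for Drd2, 3.11 for Gpr6 and 1.52 for Rarb. The levels were 249, 160, 146 and 214 CPM in KO 1 to 4, 204, 296, 408 and 122 CPM in HxD 1 to 4, and 162, 208, 278 and 182 CPM in WT 1 to 4. Its range was narrower than that of the receptors, 3.35-fold from the lowest to the highest library, against 21.3-fold for Adora2a and 31.5-fold for Drd2. HxD 3 exceeded the median of the 12 libraries by 202 CPM for Ppp1r1b, 75.5 CPM for Adora2a, 41.8 CPM for Drd2 and 14.0 CPM for Gpr6. The whole level in HxD 3 was 1.98 times the median for Ppp1r1b, 8.92 times for Adora2a, 10.8 times for Drd2 and 4.77 times for Gpr6. The log2 fold change for KO against WT was -0.11 ± 0.33 (adjusted p = 0.958), HxD against WT gave 0.31 ± 0.33 (adjusted p = 0.999) and KO against HxD -0.42 ± 0.34 (adjusted p = 0.68, all by edgeR). The sign for HxD against WT rested on HxD 3, without which it was -0.01, and that for KO against WT turned without WT 3 (0.06) or without KO 3 (0.00).

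Rarb encodes a nuclear receptor for retinoic acid. It stood at 4.62, 1.60, 4.28 and 1.03 CPM in KO 1 to 4, 4.85, 5.98, 9.48 and 4.39 CPM in HxD 1 to 4, and 6.05, 5.05, 5.35 and 4.11 CPM in WT 1 to 4. KO 2 and KO 4 were the lowest libraries, and KO 1 and KO 3 lay within the range of WT. Group means were 2.88 ± 1.83 CPM in KO, 6.17 ± 2.31 in HxD and 5.14 ± 0.803 in WT (SD, n = 4). The log2 fold change was -0.83 ± 0.46 for KO against WT, 0.26 ± 0.46 for HxD against WT and -1.09 ± 0.47 for KO against HxD, with adjusted p = 0.629, 0.999 and 0.403 in edgeR. Without HxD 3 the change for HxD against WT was -0.03.

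**Figure D2:**
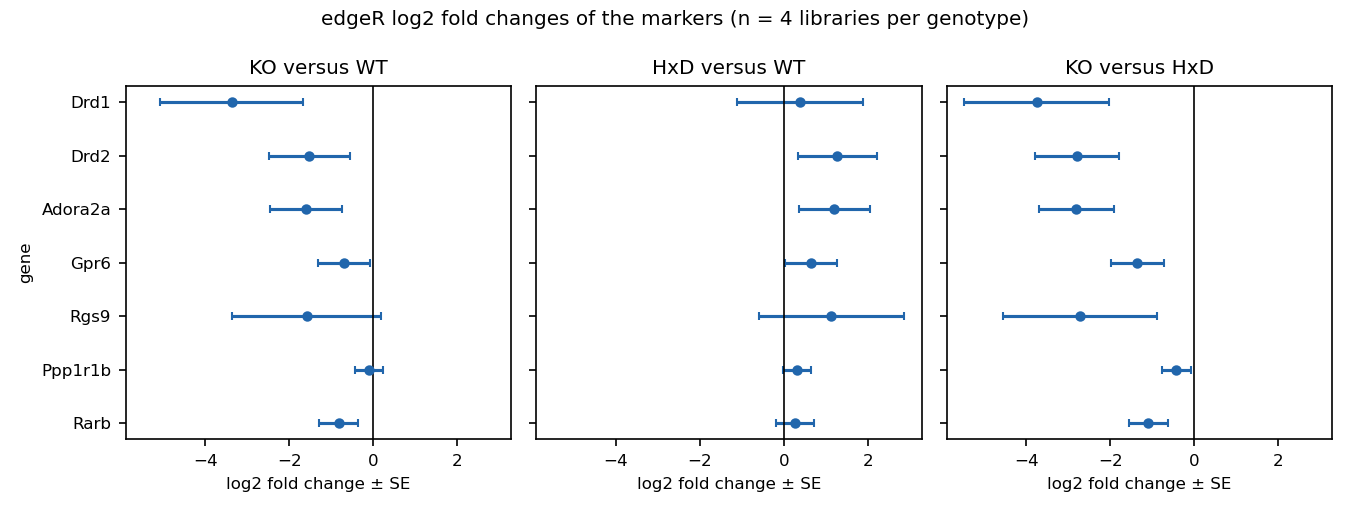
Log2 fold changes (linear axis, log2 units) of the 7 markers by edgeR with 1 SE in the 3 comparisons of KO with WT, HxD with WT and KO with HxD, from 4 libraries per genotype. All 7 values lie below 0 where KO is set against WT or HxD and above 0 where HxD is set against WT, and none passed the adjusted test.

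Read as a set, the mean level of every tested marker was lowest in KO and highest in HxD, but no neighbouring genotypes in that order differed by the test. In KO against WT, 0 of 7 markers passed edgeR at an adjusted p below 0.05, where 0.154% of all tested genes did, and 0 had an unadjusted p below 0.05 beside 9.48%. All 7 log2 fold changes were below 0, as were 49.1% of all tested genes, and their median was -1.52 against 0.01 for all genes. In HxD against WT, 0 of 7 passed where 0.898% of tested genes did, 0 had an unadjusted p below 0.05 beside 4.05%, and the median was 0.65 against 0.01, with all 7 above 0 beside 51.3% of all genes. This set result rested on HxD 3: without it the median was 0.04, with 4 of 7 above 0 and 3 below. Without WT 3, the median was 1.22 for HxD against WT and -0.63 for KO against WT, the last with 6 of 7 below 0. Without HxD 4 it was 1.01 for HxD against WT. In KO against HxD, 0 of 7 passed where 1.02% did, 3 (Drd2, Adora2a and Rarb) had an unadjusted p below 0.05 beside 11.6%, and the median was -2.72 against 0.00, with all 7 below 0 beside 49.8% of all genes. Without HxD 3 that median was -1.65, again with 7 of 7 below 0. The medians of -2.72, -1.65 and 0.04 are the values of Rgs9, and 1.22 is that of Drd1. Both genes jumped between 0 and 100 or more counts within a genotype, so these medians carry that limit. Libraries of the genotypes did not overlap for 0 of 7 markers in KO against WT, for 0 in HxD against WT and for 1, Drd1, in KO against HxD, beside 7.20%, 3.48% and 7.59% of all tested genes. The DESeq2 Wald test called 0, 0 and 1 of the 7 in KO against WT, HxD against WT and KO against HxD, beside 2.46%, 1.47% and 3.39% of all tested genes, and limma-voom called 0 in each. Each genotype enters a pair of these comparisons, and the markers share libraries, so the 7 directions are not independent of each other.

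Library by library, the markers were summarised by a score, the median over the 7 genes of log2(CPM + 0.5) after centring each gene on its mean over the 12 libraries. KO 1 to 4 scored -0.38, -1.17, -0.51 and -1.18, HxD 1 to 4 scored 0.63, 1.41, 2.36 and -0.76, and WT 1 to 4 scored -0.20, -0.24, 1.70 and -0.04. KO libraries lay wholly below WT libraries in this score, and HxD spanned nearly the whole range. The highest KO score, -0.38 in KO 1, was close to the lowest WT score, -0.24. The score includes Drd1 and Rgs9, both listed at 0 in KO 1, so this order carries the limit of such counts. For 0 of the 7 single markers did KO lie wholly below WT. The mean score was -0.81 ± 0.42 in KO, 0.91 ± 1.32 in HxD and 0.30 ± 0.94 in WT (SD, n = 4). The difference in mean score was -1.12 for KO against WT, 0.60 for HxD against WT and -1.72 for KO against HxD. Single libraries carried much of this: without WT 3 the difference was -0.64 for KO against WT, and for HxD against WT it was 0.10 without HxD 3, 0.30 without WT 2, 1.11 without WT 3 and 1.21 without HxD 4. HxD 3 was the highest library for 6 of the 7 markers, beside 11.0% of all tested genes, and WT 3 was the highest for Drd1, beside 6.46%.

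**Figure D3:**
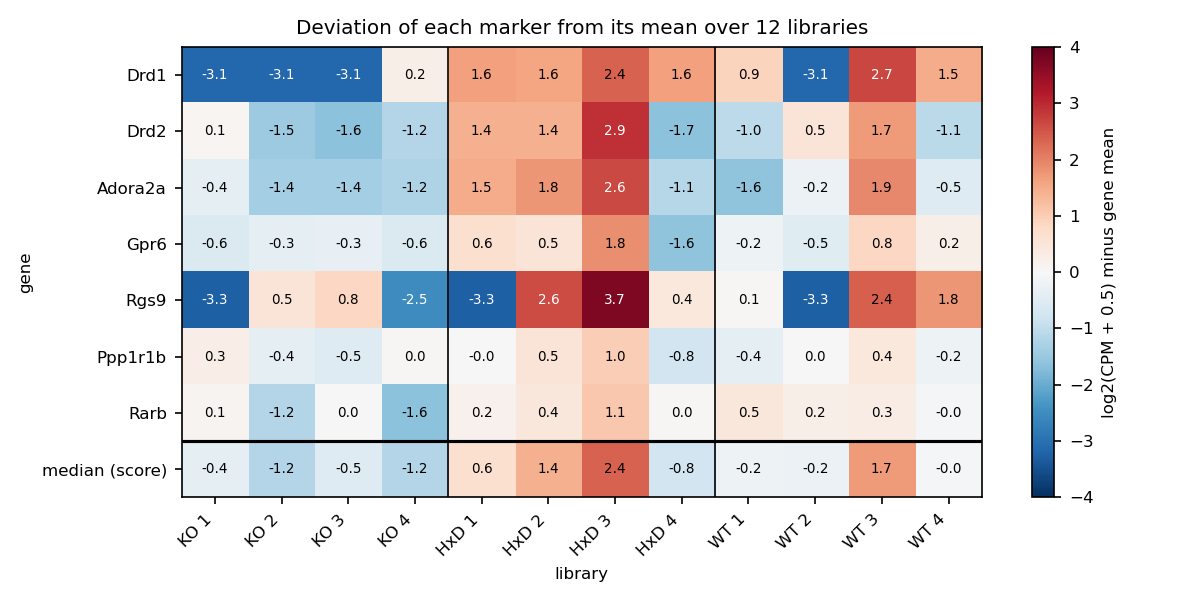
Heat map of log2(CPM + 0.5) minus the gene's mean over 12 libraries (colour and printed number, log2 units) for the 7 markers in rows and the libraries of KO, HxD and WT in columns, with the score in the last row. HxD 2, HxD 3 and WT 3 are above the mean for all 7 genes, whereas HxD 1 is far below the mean for Rgs9 alone.

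Whether the markers move together was asked with correlations over libraries. A gene whose largest gap between neighbouring libraries exceeded 33.3% of its log2 range was taken to fall into separate clusters, a rule chosen after the values were seen, and its pairs were read within the larger cluster. Drd2, Ppp1r1b and Gpr6 showed no such gap. Permutations ran across genotypes, so differences in level between genotypes enter both r and its p. Over 12 libraries Drd2 and Ppp1r1b had Pearson r = 0.888 and Spearman rho = 0.839 (permutation test, adjusted p = 0.00228 and 0.0213), with r = 0.779 without WT 3 and HxD 3. Drd2 and Gpr6 had r = 0.825 and rho = 0.769 (permutation test, adjusted p = 0.00551 and 0.0479), with r = 0.631 without those libraries. Ppp1r1b and Gpr6 had r = 0.8 and rho = 0.51 (permutation test, adjusted p = 0.00879 and 0.178), and r = 0.452 without HxD 3 and HxD 4, so this relation rests on those libraries. Of 19 pairs with at least 6 libraries, 10 passed a permutation test of Pearson r at an adjusted p below 0.05 (exact below 10 libraries), and 2 did with Spearman rho. Without HxD 3, 1 pair passed, and without KO 3, 6 did. The ratio of Drd2 to Adora2a in CPM ranged from 0.259 to 0.75 over the libraries while Adora2a ranged 21.3-fold, and among the 4 libraries with the most Adora2a the ratio was 0.424 in HxD 1, 0.349 in HxD 2, 0.541 in HxD 3 and 0.382 in WT 3.

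Other genes enriched in striatum were read from a list of 25, of which 16 passed the filter and 4 (Drd3, Six3, Ido1 and Oprm1) were listed at 0 in all 12 libraries. None of the 16 passed edgeR in any comparison. Of all tested genes, 0.154% did in KO against WT, 0.898% in HxD against WT and 1.02% in KO against HxD. In KO against WT 13 of 16 were below 0 with a median log2 fold change of -0.69, beside 49.1% of all tested genes. An unadjusted p below 0.05 was reached there by 4 genes, 3 lower and 1 higher in KO, beside 9.48% of all genes. In HxD against WT 14 were above 0, beside 51.3%, with a median of 0.52, and 1 had such a p, beside 4.05%. In KO against HxD 14 were below 0, beside 49.8%, with a median of -1.56, and 9 had such a p, 8 lower and 1 higher in KO, beside 11.6%. The gene that was higher in KO in both was Chrm4, a muscarinic acetylcholine receptor, with log2 fold changes of 0.45 and 0.45 (adjusted p = 0.525 and 0.428 in edgeR); it was named after its values were seen. In 12 of the 16, HxD 3 was the highest library, beside 11.0% of all genes. The summed level of the list was 377.7 to 678.4 CPM in KO, 543.4 to 1267 CPM in HxD and 520.3 to 751.8 CPM in WT, with the top value in HxD 3.

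Penk, the precursor of the enkephalins of indirect-pathway neurons, came nearest to the threshold in this list. It stood at 49.3, 23.9, 29.3 and 37.8 CPM in KO 1 to 4, 153.3, 100.2, 223.9 and 46.9 CPM in HxD 1 to 4, and 58.4, 79.0, 83.4 and 57.1 CPM in WT 1 to 4. Every KO library was below every WT library, and HxD 4 lay within the KO range. The log2 fold change was -0.99 ± 0.41 for KO against WT, 0.92 for HxD against WT and -1.90 ± 0.42 for KO against HxD, with adjusted p = 0.48, 0.999 and 0.075 in edgeR. Pdyn, the dynorphin precursor of direct-pathway neurons, did not share this order of libraries: its means were 24.7 ± 2.92 CPM in KO, 33.1 ± 16.1 in HxD and 38.2 ± 3.58 in WT (SD, n = 4), and HxD 1 was its lowest library at 15.7 CPM. Tac1, the substance P precursor, was listed at 0 in 9 libraries and had 9.15 CPM in HxD 1, 3.12 in HxD 4 and 4.76 in WT 2. Actn2, an actin cross-linking protein, gave -0.995 ± 0.38 against WT and -1.51 ± 0.38 against HxD in KO (adjusted p = 0.433 and 0.147). Sp9, a transcription factor of the striatal lineage, gave 0.66 for HxD against WT (adjusted p = 0.999).

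The signal chain below the receptors was read from a list of 28 genes, of which 22 passed the filter. In KO against WT, HxD against WT and KO against HxD, 0 passed edgeR, beside 0.154%, 0.898% and 1.02% of all tested genes. The median log2 fold change of the list was -0.12, 0.07 and -0.09 in these comparisons. In KO against WT 16 of 22 were below 0, beside 49.1% of all tested genes. In HxD against WT 15 were above 0, beside 51.3%, and in KO against HxD 13 were below 0, beside 49.8%. An unadjusted p below 0.05 in edgeR was reached by 3, 0 and 6 of the 22, beside 9.48%, 4.05% and 11.6% of all tested genes. Many of these genes are used throughout the cortex. Adcy5, the main adenylyl cyclase of striatum, stood at 764.7 CPM in HxD 3 against 272 to 592.4 CPM in the other libraries, with a log2 fold change of KO of -0.51 ± 0.24 against WT and -0.69 ± 0.24 against HxD (adjusted p = 0.549 and 0.327 in edgeR). Ptpn5, the striatal-enriched tyrosine phosphatase, averaged 68.5 ± 5.44 CPM in KO, 133.8 ± 45.8 in HxD and 108.7 ± 19.6 in WT (SD, n = 4). Its adjusted p was 0.346 for KO with WT and 0.0806 for KO with HxD, and its highest library was HxD 4 at 197.2 CPM, not HxD 3. Prkaca, a catalytic subunit of protein kinase A, gave, in KO, -0.24 ± 0.08 against WT and -0.30 ± 0.08 against HxD (adjusted p = 0.354 and 0.18). Adcy1, a cyclase of cortical neurons, gave -0.52 for HxD against WT (adjusted p = 0.999).

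**Figure D4:**
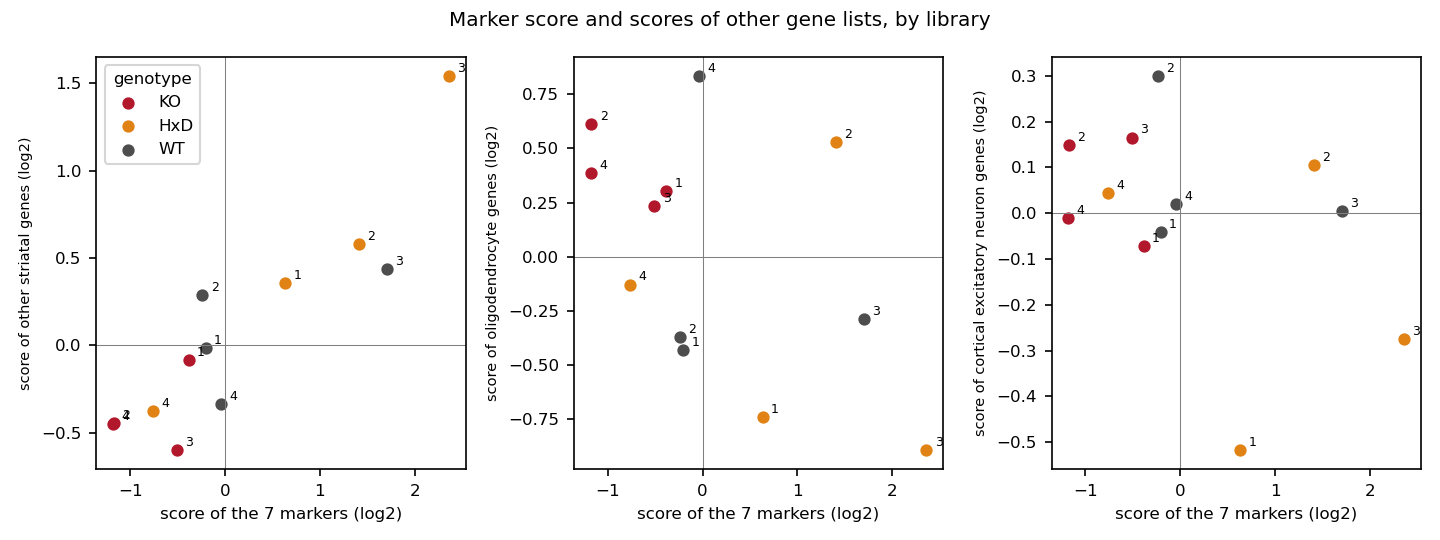
Score of the 7 markers (horizontal axis, log2 units) against the scores of 16 other striatal genes, 9 oligodendrocyte genes and 17 cortical excitatory neuron genes (vertical axes, log2 units, computed alike), with 1 point per library and its replicate number. HxD 3 is at the top of the striatal panel and at the bottom of the oligodendrocyte panel, and KO libraries sit low on the marker score.

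Markers of other cells and regions varied beside these values. Oligodendrocyte markers, 9 of 10 of them tested, summed to 3410 to 4037 CPM in KO, 1486 to 4414 CPM in HxD and 2102 to 4981 CPM in WT, with the lowest sum in HxD 3. Cortical excitatory neuron markers, 17 of 19 tested, summed to 3358 to 4051 CPM in KO, 3208 to 4522 CPM in HxD and 3856 to 5024 CPM in WT, again lowest in HxD 3. GABAergic markers, all 10 tested, summed to 2155 to 2236 CPM in KO, 2084 to 2458 CPM in HxD and 1797 to 2434 CPM in WT. Gad2 and Slc32a1, used by striatal projection neurons as by interneurons, were highest in HxD 3, at 436.4 and 264.4 CPM against at most 285.6 and 204.5 CPM elsewhere. Gad1, used by the same neurons, was not: it had 457.8 CPM in HxD 3, and 378.4 to 560.7 CPM elsewhere with the top value in KO 4. None of these genes passed edgeR in any comparison, where at most 1.02% of all tested genes did. The part of these cells in the marker levels was not tested.

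Cholinergic neuron markers, 1 of 5 of which passed the filter, summed to 0.856 to 2.73 CPM in KO, 1.27 to 12.2 CPM in HxD and 1.10 to 4.86 CPM in WT, with 12.2 CPM in HxD 3. Chat, the acetylcholine-synthesising enzyme, was listed at 0 in KO 1, KO 3, HxD 1, WT 1 and WT 4 and peaked at 3.396 CPM in HxD 3. Thalamic markers, 6 of 8 tested, summed to 124.5 to 176.6 CPM in KO, 78.5 to 222.1 CPM in HxD and 77.3 to 157 CPM in WT. The top value, 222.1 CPM, was that of HxD 3. Tcf7l2, a defining thalamic gene, was detected at 1.76 CPM in HxD 3 and at 0.122 CPM in WT 3, with 0 listed for every other library. Cdhr1, a cadherin on the olfactory bulb list, was highest in HxD 3. Olfactory bulb markers, 4 of 6 tested, summed to 17.9 to 31.8 CPM in KO, 13.9 to 46.5 CPM in HxD and 16.8 to 31.6 CPM in WT. Here too the top value, 46.5 CPM, was that of HxD 3, so its high sums were not limited to striatal markers. Hippocampal markers, 5 of 8 tested, were high in HxD 1 mainly through Fibcd1, at 200.3 CPM there against 12.0 to 27.7 CPM elsewhere, a gene named after its values were seen, and through C1ql2, at 79.6 CPM against 1.05 to 28.6 CPM. Choroid plexus markers, 4 of 6 tested, were high there through Ttr, a carrier of thyroid hormone, at 246.6 CPM, and Folr1 was listed at 0 in all libraries but HxD 1. HxD 1 thus had the highest sums of hippocampal and of choroid plexus markers beside raised Drd2 and Adora2a. In HxD 3 these sums were 49.1 and 22.6 CPM, within the range of the other libraries. Prox1, Trpc6, Clic6 and Kcnj13, on the same lists, were highest in libraries other than HxD 1. They were named after their values were seen, and the source of this RNA was not tested.

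The genes outside the 9 markers whose pattern was most like the marker score were taken from 8 with the highest Pearson r over 12 libraries, among genes of at least 5 CPM on average that were listed at 0 nowhere. They were Syndig1l (r = 0.922), Tmem158 (0.901), Itga9 (0.885), Sh3gl3 (0.873), Ap1s1 (0.871), Plod3 (0.867), Cacng4 (0.862) and Penk (0.859), given as a description without a test. Syndig1l, known for its expression in caudate and putamen, Tmem158 and Penk also stand on the list of other striatal genes. Without HxD 3 and WT 3, the libraries farthest from the median score, r was 0.698 for Sh3gl3, an endophilin, and 0.826 for Penk. Syndig1l stood at 80.9 CPM in HxD 3 against 6.73 to 41.3 CPM in the other libraries, and averaged 11.2 ± 4.89 CPM in KO, 38.1 ± 31.1 in HxD and 22.7 ± 13.7 in WT (SD, n = 4). Cacng4, an auxiliary subunit of AMPA receptors, stood at 112.6 CPM in HxD 3 against 37.1 to 66.9 CPM elsewhere.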

How the data were processed

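The authors deposited 1 table of estimated counts per gene symbol and library, without normalization. Its values are whole numbers, so rounding changed nothing. Per the submitters' processing notes, which give neither role nor order, STAR 2.7.1a, StringTie 2.2.3, Trim Galore 0.6.7, SAMtools 1.9 and FastQC were used, with mm10 and GRCm39 as builds, and how reads were assigned to genes and strands is not given in the sources used here. Estimated counts can be listed at 0 where an assignment failed.

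The 25 symbols on several rows (0.319% to 0.567% of a library) were left out. Genotype was the sole term of a single fit over the 12 libraries: edgeR 4.0.16 in R 4.3.3, TMM factors of 0.968 to 1.02, filterByExpr at a minimum count of 10 (11693 genes), a robust quasi-likelihood F test, two-sided, Benjamini-Hochberg adjusted over all tested genes at 0.05. The steps were tested on simulated data. In a simulated KO against WT, 34% of 100 genes changed 2-fold and 74% of 100 genes changed 4-fold were called, with 8 false calls. The changed genes were drawn from those with higher counts. A marker that did not pass is thus not shown to be unchanged. Log2 values of single libraries used CPM plus 0.5. Correlations used 100000 resamples, or all pairings below 10 libraries. Alternatives were other scalings, filters and thresholds, DESeq2 1.42.0, limma-voom (limma 3.58.1), a fit to 8 libraries only, a block for replicate number, and each library left out. Transcript lengths are from GENCODE M21 and promoters from RefSeq.

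Named genes are the 9 markers, Tet1, fixed genes of the striatal and signalling lists with the 2 of smallest p per comparison and any called gene, genes among the first 3 of each other list, and the 8 genes most like the score. Gene lists, markers and tests were chosen with earlier results of these data known. Some genes that this rule names are not reported here.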

Additional observations from a re-analysis of the deposited data

Results flagged for a closer look

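Single libraries stood far from the other 3 of their genotype for 5 gene levels and for the score, out of 24 groups checked. A rate by chance of about 1 in 20 groups would hold only for independent values with a normal spread. These groups share libraries and some hold counts of 0, so the number flagged is not read against that rate. In HxD, Drd1 was set apart by HxD 3 at 21.9 CPM, the other HxD libraries lying at 12.5 to 13.1 CPM. In KO, Drd1 was set apart by KO 4 at 4.61 CPM, the other KO libraries being listed at 0. KO 1 stood above the other KO libraries with 5.99 CPM of Drd2 and with 9.93 CPM of Adora2a. In WT, WT 3 stood above the others with 51.3 CPM of Adora2a and with a marker score of 1.70.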

How the results depend on the processing

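Of 357 fold changes of single markers recomputed under alternatives, 349 kept their direction and their side of the threshold, 7 turned and 1 passed. Adora2a in KO against HxD passed the DESeq2 Wald test (log2 fold change -2.82, adjusted p = 0.023), which makes that test's count of called markers 1 in place of 0; limma-voom and the edgeR alternatives called 0 markers in every comparison. Those that turned were Rgs9 in HxD against WT with the replicate block (-0.75), Drd1 there without WT 2 (-0.0391, range without a library -0.0391 to 1.22), Ppp1r1b, Rarb and Gpr6 there without HxD 3 (ranges -0.0086 to 0.543, -0.0266 to 0.395 and -0.0509 to 1.01), and Ppp1r1b in KO against WT without WT 3 or KO 3 (range -0.26 to 0.0628). Leaving out each library, counts over all genes were 91 to 97 for HxD against WT (105 with all libraries), 12 to 35 for KO against WT (18, and 35 without WT 4) and 97 to 110 for KO against HxD (119). In the same way, score differences were 0.10 to 1.21, -1.29 to -0.64 and -2.31 to -1.24 for these comparisons. The DESeq2 Wald test called 172, 288 and 396 genes. For KO against WT, limma-voom called 0 (1145 at an unadjusted p below 0.05), edgeR on the 8 libraries alone 0 (1171 at an unadjusted p below 0.05), the replicate block 5, and thresholds of 0.01 and 0.1 gave 10 and 33. Pairs of markers that passed were 2 with Spearman rho and 1 to 12 without a library (1 without HxD 3, 6 without KO 3), against 10. Replicate numbers did not pair libraries: same-numbered deviations correlated at -0.066 to 0.073, and 4 of 12 libraries correlated best with their own number. Low counts limit Gpr6 and Rarb. The cause of these shifts was not tested. Medians of the marker folds without each library were computed after the data were seen.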
